A study of Mus musculus with 8 samples.

Results

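Dorsal skin holds resident immune cells among its keratinocytes, fibroblasts and vessels, and 47 genes that mark them were followed here: 12 of macrophages, 7 of Langerhans and dendritic cells, 17 of T and natural killer (NK) cells, 8 of mast cells and 3 of granulocytes. They were chosen by name, and each was read from the probe set that names it alone and has the highest mean over all arrays. Such a probe set was found for 46 of them, *Lck* being the exception, out of 18193 genes measured in this way, and 38 lay above the filter on low values, out of 12735 genes tested. The samples were 8 arrays of whole dorsal skin from hairless Hos:HR-1 females, 4 fed AIN-93G, a purified rodent diet, and 4 fed that diet with 2 g of fish scale collagen hydrolysate for every 100 g. Feeding ran for 12 weeks from an age of 9 weeks, so the animals were 21 weeks old at sampling. Of 16 mice in the study, 8 on each diet, 8 gave arrays. The labels call the arrays biological replicates and do not say which mice shared a cage. The comparison asks whether genes of the skin differ between the diets.

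Macrophages of the dermis take up debris and pathogens, and are known by scavenger receptors, complement C1q and lysozyme. Langerhans cells, which carry langerin (*Cd207*), sit in the epidermis and share *Epcam* with keratinocytes, while dermal dendritic cells carry antigen to lymph nodes. T cells signal through the CD3 complex, NK and cytotoxic T cells kill with granzymes and perforin, and mast cells store proteases and histamine in granules that they release when IgE on their receptor meets antigen.

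The deposited log2 values lay between 5.34 and 14.27 over all probe sets and hardly differed between arrays, with a median SD over the 8 of 8.66e-06. The summarization behind them was not given in the sources used here, and no fold change of RNA can be read from them. The unit of every difference below (collagen minus control) is instead the SD of that gene within the diets, pooled over both. A single array's value is its deviation, in this unit, from the mean of all 8. The p-values measure the spread between these arrays. No gene of the whole array passed when the diets were compared. At an adjusted p below 0.05 in limma stood 0 of 12735 genes (0%), with a smallest adjusted p of 0.0510 (*Plk1*), and at an unadjusted p below 0.05 stood 682 genes (5.36%). Over all genes tested 54.5% were lower on the collagen diet and the median difference was -0.08 SD. Keratinocyte genes, which should be strong in skin, had levels from 10.21 to 14.07 in the 9 genes tested. Skeletal muscle genes, 10 of 10 measured, were low in control replicate 4 and collagen replicate 1, with mean deviations of -1.37 and -1.36 SD against 0.21 to 0.83 SD in the other 6 arrays.

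The clearest pattern among the markers was a shared movement of mast cell genes from animal to animal, which did not follow the diet. To show the genes concerned, the 250 bases before the start site of 4 of them are given from RefSeq (GRCm38.p6), 5′ to 3′ on the gene's strand, with GATA or its reverse complement TATC in capitals, since GATA factors are known regulators of mast cells. Overlapping matches were counted separately.
Cpa3, chr3:20242182-20242431, minus strand: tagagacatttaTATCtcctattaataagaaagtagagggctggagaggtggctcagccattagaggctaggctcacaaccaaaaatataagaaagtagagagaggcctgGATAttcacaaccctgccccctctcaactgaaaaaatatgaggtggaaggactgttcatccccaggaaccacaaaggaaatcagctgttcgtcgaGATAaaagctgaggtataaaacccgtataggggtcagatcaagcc
Cma1, chr14:55944676-55944925, minus strand: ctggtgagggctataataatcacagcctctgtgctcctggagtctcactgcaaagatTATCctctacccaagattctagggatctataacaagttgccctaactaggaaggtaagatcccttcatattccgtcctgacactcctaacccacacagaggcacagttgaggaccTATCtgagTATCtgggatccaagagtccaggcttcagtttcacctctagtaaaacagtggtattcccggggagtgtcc
Mcpt4, chr14:56062311-56062560, minus strand: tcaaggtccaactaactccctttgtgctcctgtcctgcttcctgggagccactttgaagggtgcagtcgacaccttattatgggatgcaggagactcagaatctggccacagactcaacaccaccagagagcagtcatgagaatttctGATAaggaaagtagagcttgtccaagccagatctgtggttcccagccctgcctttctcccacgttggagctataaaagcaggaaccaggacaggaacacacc
Ms4a2, chr19:11623720-11623969, minus strand: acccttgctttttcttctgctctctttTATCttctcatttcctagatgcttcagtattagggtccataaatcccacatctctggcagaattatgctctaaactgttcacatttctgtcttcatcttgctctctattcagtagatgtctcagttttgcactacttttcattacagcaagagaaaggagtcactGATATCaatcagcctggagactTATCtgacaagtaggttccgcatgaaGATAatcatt
The motif stood 3 times before *Cpa3*, 3 times before *Cma1*, 1 time before *Mcpt4* and 5 times before *Ms4a2*. It stood in the windows of 6 of the 6 mast cell genes that the RefSeq table holds, in 69.2% of the 39 windows of all markers, and in 53.6% of all 32851 windows of this length. A match is a run of letters and not a shown binding site. *Cma1* and *Mcpt4*, whose protein products are related chymases, shared 24.8% of the 250 positions read from the start site without gaps, and *Cpa3* and *Cma1* 24.0%. Both shares are near what unrelated sequences give by chance, so no likeness of these windows was seen in this reading.

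Mast cell proteases were high together in 3 animals. *Mcpt4* (probe set 1425967_a_at), a chymase of connective tissue mast cells, deviated by -1.08, -0.55, -0.64 and 1.61 SD in control replicates 1 to 4 and by 0.74, -0.80, -0.04 and 0.74 SD in collagen replicates 1 to 4. *Cma1* (1449456_a_at), mast cell chymase, stood at -0.88, -0.84, -0.56 and 1.44 SD on the control diet and at 1.00, -0.63, -0.46 and 0.93 SD on the collagen diet. *Cpa3* (1448730_at), the carboxypeptidase of the granules, stood at -0.75, -0.52, -0.59 and 1.26 SD and at 1.13, -1.15, -0.25 and 0.86 SD. In each of these genes control replicate 4 and collagen replicates 1 and 4 were above the other 5 arrays, so the diet groups overlapped. Of the mast cell genes, *Cma1* and *Tpsab1* had the smallest p-values, and the arrays of the others are given because of the pattern seen in them. The tryptase *Tpsb2* (1422180_a_at) followed the same order, with 1.56 SD in control replicate 4 and 0.76 and 0.88 SD in collagen replicates 1 and 4, against values of -0.28 or lower in the other 5. Its further probe set, 1451802_at, with a level of 6.43, did not. There control replicate 2 (0.83 SD) and collagen replicate 3 (0.44 SD) were above collagen replicate 4 (0.18 SD). *Tpsab1* (1426175_a_at), the second tryptase and the mast cell gene of smallest p, stood at -0.92, -0.32, -0.97 and 1.27 SD on the control diet and at -0.17, -0.74, 0.36 and 1.49 SD on the collagen diet. It departed from the others in collagen replicate 1. Both tryptases are close relatives, and their probe sets may bind RNA of either.

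The receptor and the histamine enzyme of mast cells gave a similar order of arrays. *Ms4a2* (1443264_at), the beta chain of the high-affinity IgE receptor, stood at 1.33 SD in control replicate 4 and at 0.65 and 1.12 SD in collagen replicates 1 and 4, against -0.15 or lower elsewhere. Its further probe set, 1421475_at, stood at 0.93, 0.91 and 1.39 SD in the same 3 arrays and at -0.01 or lower elsewhere. *Hdc* (1454713_s_at), which makes histamine from histidine, was highest in control replicate 4 at 1.81 SD, followed by collagen replicate 4 at 0.61 SD, but stood at -0.38 SD in collagen replicate 1. *Fcer1a* (1421775_at), the alpha chain of the IgE receptor, lay below the filter with a level of 6.29. Its values of 0.83, 0.52 and 1.24 SD in those 3 arrays were above the other 5, the next being 0.34 SD in collagen replicate 3.

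**Figure D1:**
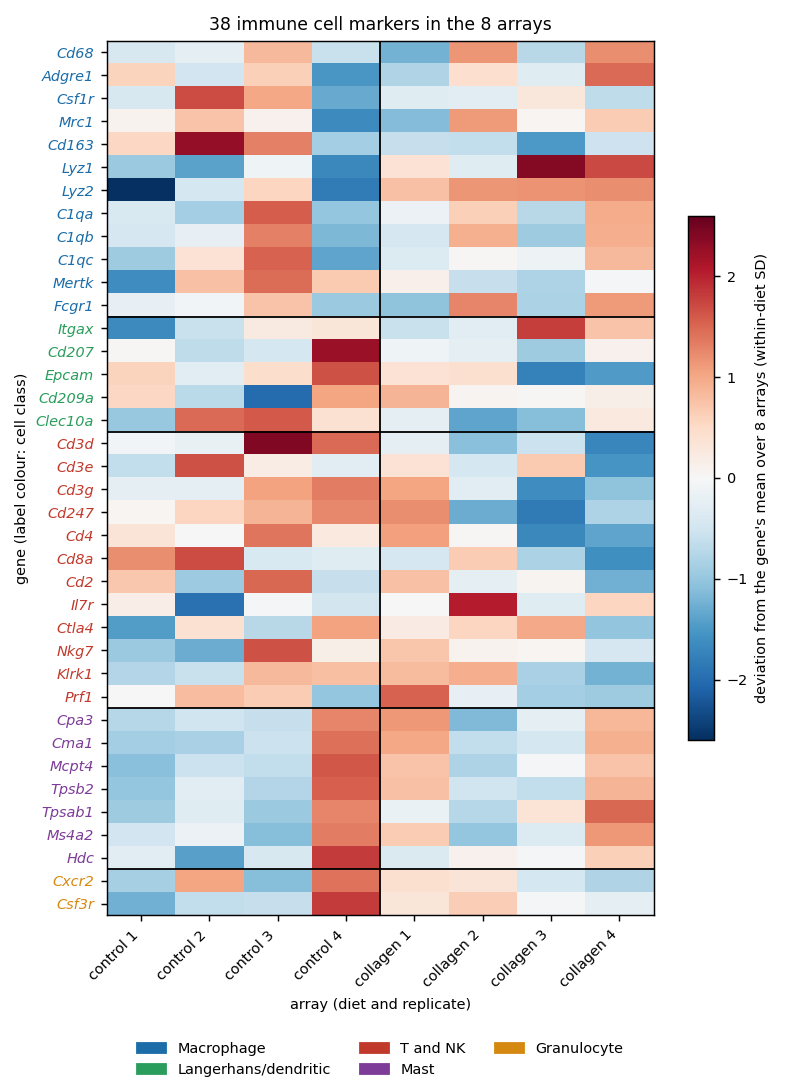
Heat map of the 38 markers tested (rows, label colour by cell class) in the 8 arrays (columns, 4 control and 4 collagen), where colour gives how far the array lies from the mean of all 8, in units of the gene's SD within the diets. The 7 mast cell genes are red together in control 4 and collagen 4, and blue or pale in control 1 to 3.

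Among the 7 mast cell genes tested, all 21 pairs of genes were positively correlated across the 8 arrays once each diet's mean was removed. The median Pearson r of the pairs was 0.88 (Spearman rho 0.76), with r from 0.56 to 0.96, and it was 0.53 without control replicate 4 and collagen replicate 4, the 2 arrays farthest from the median. Over all pairs of the 12735 genes the median r was 0.01 and 50.9% were positive. Among lists of other cell types the median r was 0.95 in skeletal muscle, 0.64 in fibroblasts, 0.56 in blood and 0.52 in adipocytes. It was 0.32 in endothelium, 0.15 in keratinocytes and 0.07 in Schwann cells and melanocytes. These values describe 8 arrays that share one processing, and genes of a class are not independent measurements. The 12 macrophage genes had a median r of 0.51 with 62 of 66 pairs positive, the 12 T and NK genes 0.28 with 52 of 66, and the 5 Langerhans and dendritic genes -0.04 with 5 of 10. Without the 2 arrays farthest from the median these were 0.32, 0.15 and -0.41. Between classes, mast cell genes were positive with granulocyte genes in 14 of 14 pairs (median r 0.50), with Langerhans and dendritic genes in 33 of 35 (0.37), with T and NK genes in 39 of 84 (-0.09) and with macrophage genes in 9 of 84 (-0.34).

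Mast cell genes also had the highest median spread of the 5 classes between animals of 1 diet. Their SD within the diets was at the 94.0th to 98.7th percentile of all genes tested, with values from 0.000385 to 0.00594 on the deposited log2 scale. T and NK genes ranged from percentile 1.41 to 83.5 with a median of 51.7, and macrophage genes from 55.6 to 94.8 with a median of 89.2. Outside the 5 classes, skeletal muscle genes had a higher median percentile, 99.6, than the 98.1 of mast cell genes. The spread of *Mcpt4* was the highest of all 38 markers at 0.00594, and that of *Cd2*, an adhesion molecule of T cells, the lowest at 8.84e-07. As the processing before deposit is not given, such spreads cannot be turned into fold changes between animals.

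**Figure D2:**
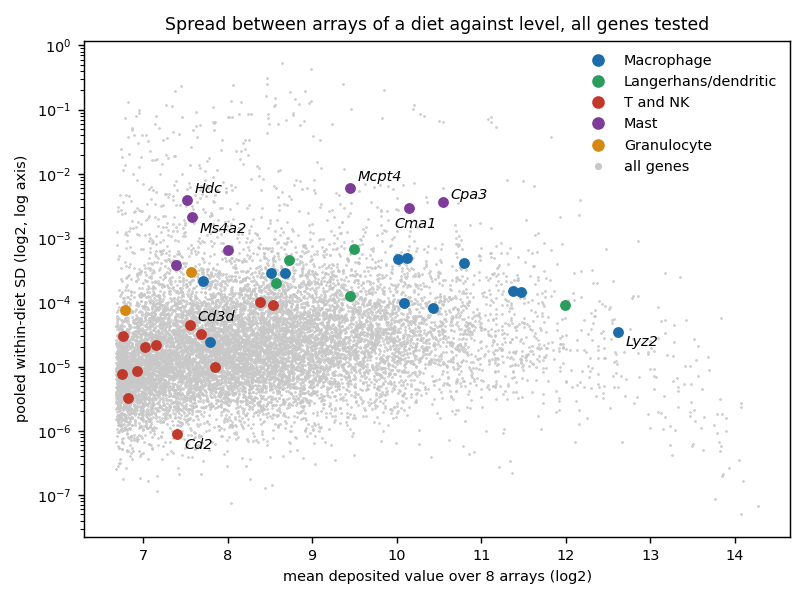
Pooled SD within the diets (vertical, log axis, log2 units) against the mean deposited value over 8 arrays (horizontal, log2) for all 12735 genes tested (grey) and the 38 markers (coloured by class). The 7 mast cell genes lie in the upper part of the cloud, from 0.000385 to 0.00594, and T and NK genes reach down to 8.84e-07.

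Between the diets, mast cell genes did not differ beyond this spread. All 7 were higher on the collagen diet, by 0.15 to 0.47 SD with a median of 0.30 SD, against 45.5% of all genes higher, and 0 had an unadjusted p below 0.05. *Tpsab1* differed by 0.47 ± 0.67 SD (SE, n = 4 per diet, unadjusted p = 0.506, adjusted p = 0.999 in limma) and *Cma1* by 0.42 ± 0.67 SD (unadjusted p = 0.552, adjusted p = 0.999). The 7 stayed higher after quantile normalization and after median centring, with medians of 0.12 and 0.28 SD. The size rested on single arrays: without control replicate 4 the median was 1.26 SD with 7 of 7 higher, and without collagen replicate 4 it was 0.06 SD with 4 of 7 higher. None of the 7 passed in either case. Leaving out any 1 of control replicates 1 to 3 or collagen replicate 1 left 6 of 7 higher. A different number of mast cells and a different amount of RNA in each cannot be told apart in whole skin, and the same holds for each class below. Of the 2 arrays low in skeletal muscle genes both were above the mean in mast cell genes, at 1.47 and 0.53 SD, and collagen replicate 4, at 0.95 SD, was high in both lists (0.82 SD in muscle). Adipocyte genes, 8 tested, stood at 0.98, 0.47 and -0.40 SD in these 3 arrays. The summed linear level of the muscle genes ranged from 19714 to 21201 on the control and from 19730 to 21688 on the collagen diet. That of the adipocyte genes ranged from 9496 to 9506 and from 9500 to 9504. These are sums of signals and give no amounts of RNA. Without both arrays low in muscle genes the mast cell median was 1.15 SD, with 7 of 7 higher, 1 whose groups did not overlap and 0 passing. In that setting the groups did not overlap in 1244 of all 12735 genes. The part of adipocytes in the mast cell pattern was not tested.

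**Figure D3:**
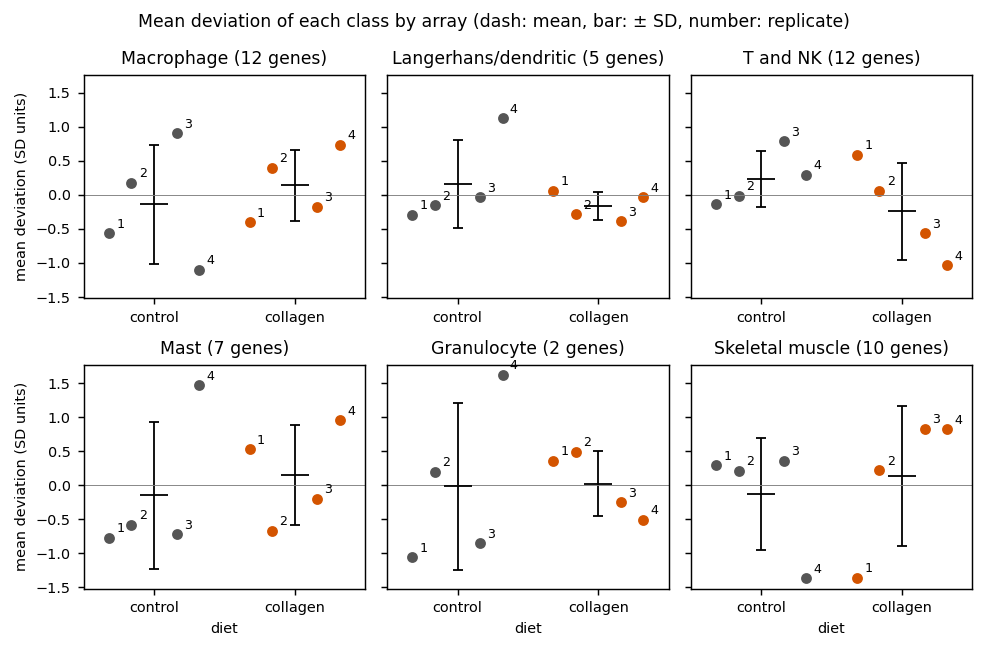
Mean deviation of the genes of each class in each array (vertical, SD units) by diet (horizontal), with 1 point for each array numbered by replicate, and the mean ± SD over 4 arrays, for the 5 marker classes and skeletal muscle. Mast cell genes stand at 1.47 SD in control replicate 4 and between -0.77 and -0.58 SD in the other 3 control arrays, and the diet groups overlap in every panel.

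Macrophage markers held the 2 genes of smallest p among all markers, both lysozymes. *Lyz2* (1423547_at), the lysozyme of macrophages and neutrophils, stood at -2.59, -0.46, 0.56 and -1.81 SD on the control diet and at 0.77, 1.15, 1.17 and 1.20 SD on the collagen diet. All 4 collagen arrays lay above all 4 control arrays, and they were close together, while the control arrays were spread. The difference was 2.15 ± 0.67 SD (SE, n = 4 per diet, unadjusted p = 0.0167, adjusted p = 0.820 in limma), which did not pass, and 3.86 SD without control replicate 3 (adjusted p = 0.677). Without control replicate 4 it was 1.85 SD. *Lyz1* (1436996_x_at), its neighbour on chromosome 10 and in most tissues the lesser form, stood at -0.97, -1.39, -0.11 and -1.68 SD and at 0.37, -0.32, 2.39 and 1.72 SD. Only collagen replicate 2 lay within the range of the control arrays. It differed by 2.08 ± 0.67 SD (unadjusted p = 0.0191, adjusted p = 0.840), and its further probe sets 1439426_x_at and 1450822_at by 1.54 and 1.97 SD. The 2 genes are close copies, and the ending x_at marks probe sets whose probes may bind several transcripts, so their values are not separate evidence. Median centring took *Lyz2* to 0.33 SD (adjusted p = 0.998) and *Lyz1* to 1.88 SD, and after quantile normalization both had equal values in all arrays and so no direction.

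The likeness of the 2 lysozyme genes shows in the 250 bases before their start sites (RefSeq, GRCm38.p6), with AGGAAG or its reverse complement CTTCCT in capitals, a form of the site that PU.1, the myeloid transcription factor, is known to bind.
Lyz1, chr10:117292869-117293118, minus strand: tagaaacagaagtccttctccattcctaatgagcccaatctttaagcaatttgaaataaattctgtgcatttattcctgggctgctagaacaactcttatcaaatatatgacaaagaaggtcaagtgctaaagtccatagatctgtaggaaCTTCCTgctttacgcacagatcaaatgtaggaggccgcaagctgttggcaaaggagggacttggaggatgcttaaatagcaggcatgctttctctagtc
Lyz2, chr10:117282273-117282522, minus strand: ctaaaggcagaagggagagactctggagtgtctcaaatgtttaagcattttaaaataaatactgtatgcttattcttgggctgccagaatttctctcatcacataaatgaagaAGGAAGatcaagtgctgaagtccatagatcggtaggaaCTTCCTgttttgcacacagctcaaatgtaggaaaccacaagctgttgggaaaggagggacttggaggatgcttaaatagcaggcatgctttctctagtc
Read from the start site without gaps, 152 of 250 positions (60.8%) were identical. The motif stood 1 time before *Lyz1*, at position -99 from the start site, and 2 times before *Lyz2*, and was found in 29.5% of all windows of this length. Among the markers that the table holds it stood in 6 of 9 macrophage windows, 10 of 16 T and NK windows and 3 of 3 granulocyte windows. It stood in 3 of 6 mast cell windows, in 1 of 5 Langerhans and dendritic windows, and in 59.0% of all 39.

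*Cd163* (1419144_at), the scavenger receptor of haemoglobin, went the other way. It stood at 0.54, 2.29, 1.30 and -0.88 SD on the control diet and at -0.59, -0.63, -1.50 and -0.53 SD on the collagen diet. Control replicate 4 was within the range of the collagen arrays and the other 3 control arrays were above it. The difference was -1.62 ± 0.67 SD (unadjusted p = 0.0487, adjusted p = 0.930 in limma), and -3.31 SD without control replicate 4 (adjusted p = 0.646). Without control replicate 3 it was -1.37 SD. The complement genes *C1qa*, *C1qb* and *C1qc*, which lie side by side on chromosome 4 and encode the 3 chains of C1q, differed by 0.36, 0.25 and 0.20 SD. All 3, whose arrays are given after seeing them, were highest in control replicate 3, at 1.57, 1.32 and 1.53 SD, and lowest in control replicate 4, reaching -1.37 SD in *C1qc*, so that the largest contrast lay within the control diet. *Csf1r*, the receptor for the growth factor CSF1 on which macrophages depend, differed by -0.50 SD, and its further probe sets by -0.76 and -0.63 SD. *Mertk*, which binds dying cells, differed by -0.64 SD, and by -2.92 SD without control replicate 1 (adjusted p = 0.675). Without control replicate 3 it differed by -0.29 SD. The mannose receptor *Mrc1* differed by 0.35 SD. *Adgre1* (F4/80) differed by 0.40 SD, the lysosomal protein *Cd68* by 0.20 SD and the IgG receptor *Fcgr1* by 0.26 SD.

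In all, 9 of 12 macrophage genes were higher on the collagen diet (median 0.25 SD) and 0 of 12 passed. An unadjusted p below 0.05 was found for *Lyz2* and *Lyz1* on the higher side (1.21% of all genes tested) and *Cd163* on the lower (4.15%). After quantile normalization 6 of 9 genes with a value were lower (median -0.17 SD), where 67.2% of all genes were lower (median -0.15 SD). Without control replicate 4, and likewise without collagen replicate 4, 8 of 12 were lower (medians -0.07 and -0.04 SD). Control replicate 4, the lowest array in macrophage genes at a mean of -1.10 SD, was the highest in mast cell genes. It was also low in skeletal muscle genes.

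**Figure D4:**
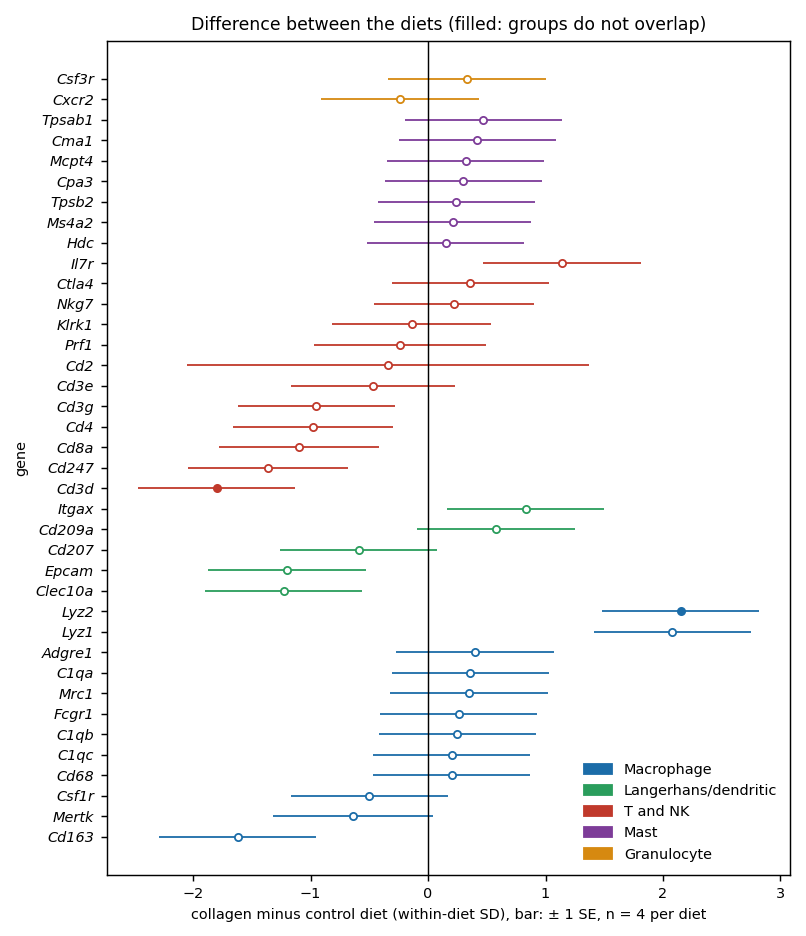
Difference between the diets for the 38 markers tested (horizontal, collagen minus control diet in SD within the diets, bars ± 1 SE, n = 4 per diet), by class. The lysozymes *Lyz2* and *Lyz1* stand farthest to the right at 2.15 and 2.08 SD and *Cd3d* farthest to the left at -1.80 SD, and filled points mark the 2 genes whose diet groups do not overlap.

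T cell receptor genes were on the lower side on the collagen diet, and none passed. *Cd3d* (1422828_at), the delta chain of CD3, stood at -0.08, -0.20, 2.41 and 1.47 SD on the control diet and at -0.26, -1.09, -0.55 and -1.70 SD on the collagen diet. The groups did not overlap, though control replicates 1 and 2 were close to collagen replicate 1. The difference was -1.80 ± 0.67 SD (unadjusted p = 0.0340, adjusted p = 0.902 in limma). *Cd247* (1426396_at), the zeta chain, stood at 0.06, 0.55, 0.88 and 1.24 SD and at 1.20, -1.29, -1.83 and -0.81 SD. Collagen replicate 1 was as high as the control arrays and the other 3 were below them all. Its difference was -1.36 ± 0.68 SD (unadjusted p = 0.0857, adjusted p = 0.996), and without collagen replicate 1 it was -3.96 SD (adjusted p = 0.735). Without control replicate 4 it was -1.11 SD. The 3 further probe sets of *Cd247*, with levels of 6.80 or lower, differed by 1.19, 0.30 and 0.23 SD, against the direction of the first.

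The other chains and coreceptors leaned the same way by less. *Cd3g*, which lies next to *Cd3d* on chromosome 9, differed by -0.95 SD and *Cd3e*, on the other side of *Cd3d*, by -0.47 SD. The coreceptors *Cd4* and *Cd8a* differed by -0.98 and -1.10 SD. A further probe set of *Cd4* differed by -0.73 SD, and those of *Cd8a* by -0.75 to 0.06 SD. *Cd2* differed by -0.34 SD. Higher on the collagen diet were *Il7r*, the receptor for the survival factor IL-7, at 1.14 SD, the inhibitory receptor *Ctla4* at 0.36 SD and the granule protein *Nkg7* at 0.22 SD. Perforin, *Prf1*, differed by -0.24 SD and by -1.33 SD in a further probe set of level 6.66, and the activating receptor *Klrk1* (NKG2D) by -0.14 SD.

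Together 9 of 12 T and NK genes were lower, against 54.5% of all genes, with a median of -0.40 SD. Only 5 of them remained with the lowest 50% of genes left out. Of these 3 were lower (60%, median -0.47 SD), where 57.7% of all genes were lower. An unadjusted p below 0.05 was found for 1 gene, against 5.36% of all genes. After quantile normalization 8 of 12 were lower with a median of -0.12 SD, where 67.2% of all genes were lower (median -0.15 SD), and *Cd3d* stood at 0.03 SD and *Cd3g* at 0.35 SD. After median centring 11 of 12 were lower with a median of -0.16 SD, where 86.5% of all genes were lower. Without collagen replicate 4, the lowest array in these genes at a mean of -1.03 SD, 6 of 12 were lower with a median of -0.01 SD. Without collagen replicate 1, the highest collagen array at 0.59 SD, the median was -0.85 SD, with 4 genes at an unadjusted p below 0.05 and 0 passing. In that setting 696 of all 12735 genes had an unadjusted p below 0.05. Without both arrays low in skeletal muscle genes 9 of 12 were lower with a median of -1.08 SD, and the 2 arrays lowest in T and NK genes, collagen replicates 3 and 4, were the 2 highest in muscle genes at 0.83 and 0.82 SD. The part of muscle in this result was not tested.

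Langerhans and dendritic cell genes did not move as a class. *Clec10a* (1419605_at), a lectin of dermal dendritic cells and macrophages, stood at -0.98, 1.47, 1.60 and 0.39 SD on the control diet and at -0.25, -1.37, -1.11 and 0.26 SD on the collagen diet. Control replicate 1 was among the collagen arrays and the other 3 control arrays were above them. It differed by -1.23 ± 0.67 SD (unadjusted p = 0.113, adjusted p = 0.999 in limma), and by -2.45 SD without control replicate 1 (adjusted p = 0.736). Without control replicate 3 the difference was -0.93 SD. *Epcam* (1416579_a_at), an adhesion molecule of Langerhans cells and of keratinocytes, stood at 0.58, -0.28, 0.46 and 1.65 SD and at 0.38, 0.42, -1.75 and -1.47 SD, which makes -1.20 ± 0.67 SD (unadjusted p = 0.119, adjusted p = 0.999). Collagen replicates 3 and 4 were below all other arrays, also in its further probe set, at -1.18 and -1.25 SD. That probe set differed by -0.05 SD between the diets, and the mean of both by -0.46 SD. Langerin, *Cd207*, whose arrays are also given after seeing them, was high in control replicate 4 alone, at 2.25 SD against 0.12 SD or less in the other 7 arrays, and differed by -0.59 SD between the diets. *Itgax* (CD11c) differed by 0.83 SD and the lectin *Cd209a* by 0.58 SD.

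The median of the class was -0.59 SD, from 3 lower and 2 higher genes, and 0.16 SD without control replicate 4. Its 5 genes include 1, *Epcam*, that keratinocytes also express, and keratinocyte genes stood at a mean of 0.10 SD in collagen replicate 3 and -0.46 SD in collagen replicate 4. Granulocyte genes rest on 2 receptors of neutrophils. *Csf3r* (1418806_at), the receptor for G-CSF, stood at -1.25, -0.64, -0.60 and 1.82 SD on the control diet and at 0.31, 0.64, -0.05 and -0.24 SD on the collagen diet, a difference of 0.33 ± 0.67 SD (unadjusted p = 0.640, adjusted p = 0.999 in limma). Without control replicate 4 it was 2.61 SD (adjusted p = 0.719), and without control replicate 1 it was -0.03 SD. Control replicate 4 was the highest array, as in the mean of the mast cell genes, and the other 3 control arrays were the lowest. *Cxcr2*, a chemokine receptor whose array is given after seeing it, was also highest there, at 1.41 SD, and differed by -0.24 SD.

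Levels could be set side by side only as signals of different probe sets, which bind with different strength and give no order of RNA. Macrophage markers had signals from 7.71 (*Fcgr1*) to 12.62 (*Lyz2*) with a median of 10.10, Langerhans and dendritic markers from 8.57 to 11.99, mast cell markers from 7.39 (*Tpsb2*) to 10.55 (*Cpa3*) and T and NK markers from 6.75 (*Klrk1*) to 8.54 (*Il7r*). The 8 genes below the filter of 6.68 were *Ly75* (6.41) and *Ccr7* (6.50) of dendritic cells, *Cd28* (6.30), *Foxp3* (6.29), *Gzma* (5.89) and *Gzmb* (6.58) of T and NK cells, *Fcer1a* (6.29) and *Siglecf* (5.94), a marker of eosinophils. Their groups overlapped in all 8, with differences from -0.83 to 0.76 SD. *Gzmb* at 6.58 was the nearest below the filter and *Klrk1* at 6.75 the nearest above it.

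The median over the 38 markers tested was 0.20 SD, with 16 lower and 22 higher on the collagen diet, and 0 had an adjusted p below 0.05. The diet groups did not overlap in 2, against 3.31% of all genes: *Cd3d* was lower (2.53% of all genes) and *Lyz2* higher (0.777%). Unadjusted p-values below 0.05 stood in 4 markers, against 5.36% of all genes. Of 21 further probe sets of 13 markers 16 went the way of the one tested (76.2%, against 57.6% for all genes).

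Other genes of the same cells, and signals that keep or attract them, gave the same picture of no passing gene. Of 97 such genes listed 70 were tested, of which 34 were lower, 36 were higher and 0 passed, the median being 0.02 SD. In a list of general leukocyte genes, not all of which every leukocyte expresses, 9 of 12 were higher. The first was *Itgb2*, the CD18 integrin chain, at 2.0 ± 0.68 SD (unadjusted p = 0.0230, adjusted p = 0.861 in limma). Among further myeloid genes 12 of 18 were lower, with *Cd86*, a costimulatory ligand, at -1.23 SD, and among further lymphoid genes 10 of 11, with *Cd5* at -1.34 SD. In the list of further mast cell and granulocyte genes 8 of 9 were higher, with *Mpo*, myeloperoxidase of neutrophils, at 1.72 ± 0.67 SD (unadjusted p = 0.0397, adjusted p = 0.923 in limma). All 3 B cell genes tested were higher, *Cd22* by 0.70 SD, while *Cd79a*, *Cd79b* and *Ms4a1* lay below the filter. Growth factors and chemokines were 8 lower and 9 higher, with the alarmin *Il33* at 1.46 SD (unadjusted p = 0.0691).

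Of further genes of mast cells, named here after their values were seen, *Kit*, *Gata2* and *Mrgprb1* were highest in control replicate 4. In *Kit* and *Mrgprb1* the same 3 arrays as in the proteases were above the other 5. *Kit*, the receptor of the mast cell growth factor, stood at -0.81, -1.08, -0.23 and 1.63 SD on the control diet and at 0.39, -0.93, 0.34 and 0.70 SD on the collagen diet, so that collagen replicate 3 was close to collagen replicate 1. *Gata2*, a GATA factor of mast cells, stood at -0.89, -0.64, -0.88 and 1.83 SD and at 0.44, -0.56, 0.58 and 0.13 SD, so that collagen replicate 3 was above collagen replicates 1 and 4. *Mrgprb1*, a receptor gene of connective tissue mast cells, stood at 1.47, 0.65 and 1.19 SD in control replicate 4 and collagen replicates 1 and 4, and at -0.32 SD or lower in the other 5 arrays. *Kit* is also expressed by melanocytes, whose genes with those of Schwann cells (7 of 10 tested) had means of -1.07, 0.60, -0.35 and -0.13 SD on the control diet and -0.22, 0.13, 0.53 and 0.51 SD on the collagen diet. Their part in the values of *Kit* was not tested. Between the diets *Kit*, *Gata2* and *Mrgprb1* differed by 0.25, 0.29 and 0.45 SD. *Hpgds*, of the same list, stood at 1.03, 0.80 and 1.19 SD in control replicate 4 and collagen replicates 1 and 4. In the other 5 arrays it was at -0.03 SD or lower. It was highest in collagen replicate 4 and not in control replicate 4, and differed by -0.10 SD between the diets.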

How the data were processed

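Whole dorsal skin of 8 mice was hybridised to oligonucleotide arrays after labelling from the 3' end, per the labels' protocols. The authors deposited 1 log2 value for each probe set and array, as judged from the range of the values. R 2.7.2 was used per the submitters' processing notes, and the methods of summarization and scaling were not given in the sources used here. No signal over background or counts came with the values, so the number of arrays limits the precision. Among 45101 probe sets, 64 were controls and left out. In GEO's annotation of the array, possibly outdated, 34945 named 1 gene, 932 several and 9160 none, and only the first kind was used, with the probe set of highest mean for each gene. The lowest 30% of genes were left out. The test was two-sided, from limma 3.58.1 (R 4.3.3), with eBayes variances that follow the level, Benjamini-Hochberg adjustment over all 12735 genes and a threshold of 0.05, and had 6 residual and 0.61 prior degrees of freedom. The fit was tested on simulated data. Genes with a very small SD, such as *Cd2*, got a larger SE than their own spread gives.

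Single arrays are described for markers with an unadjusted p below 0.05 or non-overlapping groups, for the 2 of smallest p in each class (1 in granulocytes), and for others where said. Of the other immune genes, those below 0.05 and the first of each list are named. Lists of genes of keratinocytes, fibroblasts, endothelium, adipocytes, skeletal muscle, blood, and Schwann cells and melanocytes were read beside them. Members and lists were chosen with earlier results of these data known. Alternatives were no filter or one at 50%, quantile normalization, median centring, the replicate number as a block, array weights, variances without the trend or robust, averaging a gene's probe sets, an adjusted p below 0.10, and leaving out each array. Leaving out both arrays low in muscle genes was added after seeing the data. Same-numbered arrays did not deviate together (correlations over genes of 0, -0.02, 0.18 and -0.07), and at most 0.0155% of values were identical between any 2 arrays. Promoter windows come from RefSeq (GRCm38.p6). Fibroblast, endothelium and blood lists had medians of 0.27, 0.20 and 0.30 SD between the diets over 10, 9 and 3 genes, keratinocytes 0.24, adipocytes -0.11, skeletal muscle 0.19, and Schwann cells and melanocytes 0.60 SD, with 0 genes passing in each.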

Additional observations from a re-analysis of the deposited data

Results flagged for a closer look

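In 5 of 76 groups of 4 arrays (38 markers, 2 diets) 1 array stood apart from the other 3 by Dixon's test at the 95% level, which chance gives in about 1 of 20 groups. Control replicate 4 stood apart in *Cpa3* at 1.26 SD, with the other control arrays from -0.75 to -0.52 SD, and in *Cma1* at 1.44 SD, with the others from -0.88 to -0.56 SD. In the mean of the mast cell genes it stood at 1.47 SD against -0.77 to -0.58 SD, which was the 1 class mean of 10 groups examined that stood apart. Collagen replicate 3 stood apart in *Cd163* at -1.50 SD, with the other collagen arrays from -0.63 to -0.53 SD. Collagen replicate 1 stood apart in *Lyz2* at 0.77 SD, with the others from 1.15 to 1.20 SD, and in *Cd209a* at 0.88 SD, with the others from 0.03 to 0.16 SD.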

How the results depend on the processing

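No marker and no other immune gene had an adjusted p below 0.05 in limma under any of the 19 alternatives, and at an adjusted p below 0.10 none did either. The count over all genes was 1 instead of 0 with the lowest 50% of genes left out and at an adjusted p below 0.10, and from 0 to 1 when 1 array was left out. The markers lower on the collagen diet were 9 of the 29 left (31%) with the lowest 50% of genes out, against 16 of 38 (42.1%). Over all genes the share lower was 57.7% in that setting, against 54.5%. The median of the 2 granulocyte genes ranged from -0.31 to 1.42 SD when 1 array was left out, highest without control replicate 4, and was 1.14 SD without both arrays low in skeletal muscle genes; the cause was not tested. Of 38 markers 17 kept their sign in all alternatives in which they had a value. Quantile normalization gave 449 genes, 4 markers among them, equal values in all arrays. With the replicate number as a block 665 genes had an unadjusted p below 0.05 against 682, 0 passed, and 16 markers were lower. Under this block *Cd163* (-1.48 SD, adjusted p = 0.944 in limma) and *Cd3d* (-1.70 SD, adjusted p = 0.944) no longer had an unadjusted p below 0.05, and *Cd8a* (-3.01 SD, adjusted p = 0.877) and *Itgax* (1.99 SD, adjusted p = 0.936) did. The numbers are not known to pair mice, so this is no test of pairing. With 4 arrays for each diet and no signal over background, small differences in these markers could not be seen or excluded.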
